A study of Mus musculus with 4 samples.

Results

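The genes described here encode the granzymes and perforin, the cytotoxic proteins that natural killer (NK) cells store in their granules. They were taken by gene symbol from the deposited count table, and all 10 (Gzma, Gzmb, Gzmc, Gzmd, Gzme, Gzmf, Gzmg, Gzmk, Gzmm and Prf1) were among its 35798 named genes. The measurements are poly-A RNA-seq libraries of Ly49H+ NK cells sorted from the spleens of NSG mice on day 3.5 after infection with murine cytomegalovirus (MCMV). Cells of wild-type donors (CD45.1) and of TNFR2 KO donors (CD45.2), which lack TNF receptor 2, had been placed together in the same hosts a day before infection, and the methods give an age of 6 to 12 weeks for all mice. Each genotype has 2 libraries, each from the pooled spleens of 3 hosts, and libraries of the same number, 1 of each genotype, came from the same pool. All cells in both groups were therefore transferred cells from infected hosts, without an uninfected or untransferred group. NSG hosts have no mature T, B or NK cells of their own but keep myeloid cells, and mice of this NOD-derived strain carry the CD45.1 allele. The CD45 allele and the sort gate differed along with the genotype, and the 3 cannot be told apart.

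Granzymes are serine proteases that enter a target cell through pores formed by perforin and set off its death. They are made as inactive precursors, trimmed by cathepsins inside the granule and held there on the proteoglycan serglycin until the NK cell meets a target. In mouse NK cells granzyme A, granzyme B and perforin are the main cargo, and translation of granzyme B and perforin from stored mRNA is a known feature of NK cell activation. Granzyme A and granzyme K cut after basic residues, granzyme B cuts after aspartate, and granzyme M cuts after methionine and similar residues. Granzymes C, D, E, F and G are rodent genes found mainly in strongly activated lymphocytes.

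Gzma, Prf1, Gzmb and Gzmk were each higher in both TNFR2 KO libraries than in both wild-type libraries when libraries were scaled on all genes, while Gzmc and Gzmm did not pass the test. When libraries were scaled instead on a list of NK lineage genes, which were themselves higher in TNFR2 KO, Gzma stayed higher, Prf1 did not pass the test, and Gzmb, Gzmk, Gzmc and Gzmm were lower, as were 88% of all genes. That scaling takes the median of the list as exact. Scaled on all genes, the log2-fold changes of the list ranged from 0.01 to 1.56. The remaining 4 genes, Gzmd, Gzme, Gzmf and Gzmg, had from 0 to 10 counts in any library. Together the 10 genes held 1.14% of all counts in both wild-type samples, compared with 2.11% in replicate 1 and 2.08% in replicate 2 of TNFR2 KO.

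The genes lie at 4 places in the genome (GRCm38, the mm10 build, with GENCODE release M21). Gzma (chr13:113093825-113100981, minus strand) and Gzmk (chr13:113171608-113225908, minus strand) are neighbours. Prf1 (chr10:61297833-61304680, plus strand) and Gzmm (chr10:79689020-79695261, plus strand) are on the same chromosome but far apart. Gzmb (chr14:56258838-56262260, minus strand) opens a cluster that runs on through Gzmc, Gzmf, Gzmg, Gzmd and Gzme, with Gzme at chr14:56117626-56120625. The 250 bases before the RefSeq transcription start (GRCm38.p6) are given for the 3 most abundant genes and for Gzmc. Each is written 5′ to 3′ on the strand of the gene. Capitals mark matches to any of 6 motifs, searched on both strands: Runx (ACCACA), T-box (TCACACC), AP-1 (TGANTCA), cyclic AMP response element or CRE (TGACGT), STAT (TTCNNNGAA) and NF-kB.
Gzma promoter, chr13:113100982-113101231, minus strand: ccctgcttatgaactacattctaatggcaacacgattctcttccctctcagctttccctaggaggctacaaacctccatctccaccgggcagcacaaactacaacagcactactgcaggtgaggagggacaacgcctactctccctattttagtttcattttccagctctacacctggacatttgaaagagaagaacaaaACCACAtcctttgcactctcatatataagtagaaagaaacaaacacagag
Gzmb promoter, chr14:56262335-56262584, minus strand: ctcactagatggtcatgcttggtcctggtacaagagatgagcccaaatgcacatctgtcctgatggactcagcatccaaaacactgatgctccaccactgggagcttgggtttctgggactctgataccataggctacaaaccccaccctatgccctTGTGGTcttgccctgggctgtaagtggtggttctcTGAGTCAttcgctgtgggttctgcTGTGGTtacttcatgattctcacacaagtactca
Prf1 promoter, chr10:61297586-61297835, plus strand: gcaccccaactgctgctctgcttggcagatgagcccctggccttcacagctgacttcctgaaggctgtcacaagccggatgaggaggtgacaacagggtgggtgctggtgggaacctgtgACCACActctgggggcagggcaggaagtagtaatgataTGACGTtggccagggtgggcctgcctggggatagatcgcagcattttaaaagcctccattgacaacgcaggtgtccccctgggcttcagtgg
Gzmc promoter, chr14:56234658-56234907, minus strand: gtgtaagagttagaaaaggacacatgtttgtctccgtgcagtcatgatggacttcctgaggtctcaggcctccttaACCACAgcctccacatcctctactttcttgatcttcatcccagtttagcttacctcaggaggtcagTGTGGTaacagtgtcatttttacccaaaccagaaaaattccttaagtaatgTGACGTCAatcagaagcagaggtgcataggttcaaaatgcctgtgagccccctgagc

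A Runx match stood in the window of 9 of the 10 genes (Gzmm in 1 of its 2 annotated windows), against 14% of all 32851 promoter windows of this length in the RefSeq table, and Gzmk was the gene without one. A CRE match stood in front of Prf1, Gzmc, Gzmf and Gzmg, 4 of the 10, against 6.47% of all windows, and in the last 3 it is the full palindrome. The single AP-1 match was in front of Gzmb, the single NF-kB match in front of Gzmk, and the single STAT match in front of Gzmm, against 6.75%, 7.25% and 7.02% of all windows. T-box matches were found for Gzmk and Gzmm, 2 of the 10, against 3.33%. The windows of Gzmc, Gzmd, Gzme, Gzmf and Gzmg are 70.2% to 94.8% identical. Their shared Runx matches are therefore not separate observations, nor are the CRE matches of Gzmc, Gzmf and Gzmg. A match describes letters only, and whether a factor binds was not measured.

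The coding sequences of these 5 genes have pairwise identities from 71.5% (Gzmc and Gzmd) to 93.3% (Gzmd and Gzme), against 65.3% to 76.2% to Gzmb. Gzmd, Gzme, Gzmf and Gzmg are close copies of each other, at 83.6% to 93.3%. Gzmc is closer to Gzmb (76.2%) than to any of those genes (71.5% to 73.4%). Gzma has between 50.2% and 54.6% identity to every granzyme gene except its neighbour Gzmk (55.5%). The first 60 coding bases of the 5 genes from Gzmc to Gzmg show the problem that shared sequence sets for counting. Capitals stand at the 4 positions where they are not all alike.
Gzmc: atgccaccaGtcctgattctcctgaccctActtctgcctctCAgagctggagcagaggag
Gzmd: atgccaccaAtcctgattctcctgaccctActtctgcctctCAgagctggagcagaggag
Gzme: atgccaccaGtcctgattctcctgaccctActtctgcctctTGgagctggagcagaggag
Gzmf: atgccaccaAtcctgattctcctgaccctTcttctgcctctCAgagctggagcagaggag
Gzmg: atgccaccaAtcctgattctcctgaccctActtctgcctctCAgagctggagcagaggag
The share of a gene's 31-base stretches that also occur in another gene, the unit in which Kallisto assigns reads by default, was 38.2% for Gzmd, 42.1% for Gzme, 34.9% for Gzmf, 33.8% for Gzmg and 14.8% for Gzmc. Reads could be exchanged among these genes, and their counts are uncertain. Gzmb shared 1.4% and Prf1 0.4% of such stretches, and Gzma, Gzmk and Gzmm shared 0%.

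Libraries held 32713054 to 39543464 counts, and levels are given as CPM, counts scaled to a common library size, here after TMM scaling. Tnfrsf1b, which encodes TNFR2, was at 264.7 and 268.6 CPM in wild-type and at 55.1 and 58.6 CPM in TNFR2 KO, lower but not absent. Ly49H, the receptor used for sorting, is encoded by Klra8, which measured 313 and 316 CPM in wild-type and 762 and 726 CPM in TNFR2 KO, with 55.0% of its stretches shared with other genes. Of 33 tested NK lineage genes, 32 were higher in TNFR2 KO at an edgeR adjusted p under 0.05. At that threshold, which also holds for the marker counts that follow, 24.2% of all tested genes were higher and 26.2% lower. The summed level of the NK lineage genes was 9059 and 8988 CPM in wild-type and rose to 15170.1 and 15129 CPM in TNFR2 KO. Markers of other cells were also present. Of 13 tested mast cell or basophil markers 12 were lower in TNFR2 KO (summed level 1373 to 1377 CPM in wild-type, 169.7 to 169.8 CPM in TNFR2 KO), as were all 14 neutrophil or granulocyte precursor markers (997 to 1015 CPM, 91.9 to 95.5 CPM) and 16 of 18 macrophage or monocyte markers (2444 to 2475 CPM, 1232 to 1255 CPM). The 2 higher ones, Ccr2 and Ly6c2, held most of the macrophage or monocyte sum in TNFR2 KO. Ccr2 had 404 and 384 CPM in wild-type and 687 and 669.7 CPM in TNFR2 KO. Ly6c2 had 268 and 256 CPM in wild-type and 312 and 315 CPM in TNFR2 KO. Of 15 T cell markers, 8 were lower, 3 were higher and 4 did not pass (2096 to 2104 CPM, 2026 to 2037 CPM). Of 9 tested plasmacytoid dendritic cell markers, 3 were lower, 1 was higher and 5 did not pass (546 to 557 CPM, 716 to 727 CPM). The higher one, Irf8, held most of these sums, at 386 and 397 CPM in wild-type and 589 and 596 CPM in TNFR2 KO. Of 10 erythroid markers, 9 were lower and 1 was higher (446 to 451 CPM, 392 to 399 CPM). The higher one, Car2, had 171 CPM in both wild-type libraries and 342 and 331 CPM, most of the sum, in TNFR2 KO. Of 3 tested B cell or plasma cell markers, 2 were lower and 1 was higher (41.3 to 42.3 CPM, 48.7 to 50.9 CPM, summed over all 9 listed). The higher one, Ighm, held most of these sums, at 36.8 and 37.9 CPM in wild-type and 48.1 and 45.6 CPM in TNFR2 KO. None of these markers was at 0 in all libraries. Mast cells and T cells can express granzymes. The part of these and the other marked cell types in the values below, those of the later gene lists included, was not tested. In bulk RNA, fewer cells of a type and less RNA per cell cannot be told apart.

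**Figure D1:**
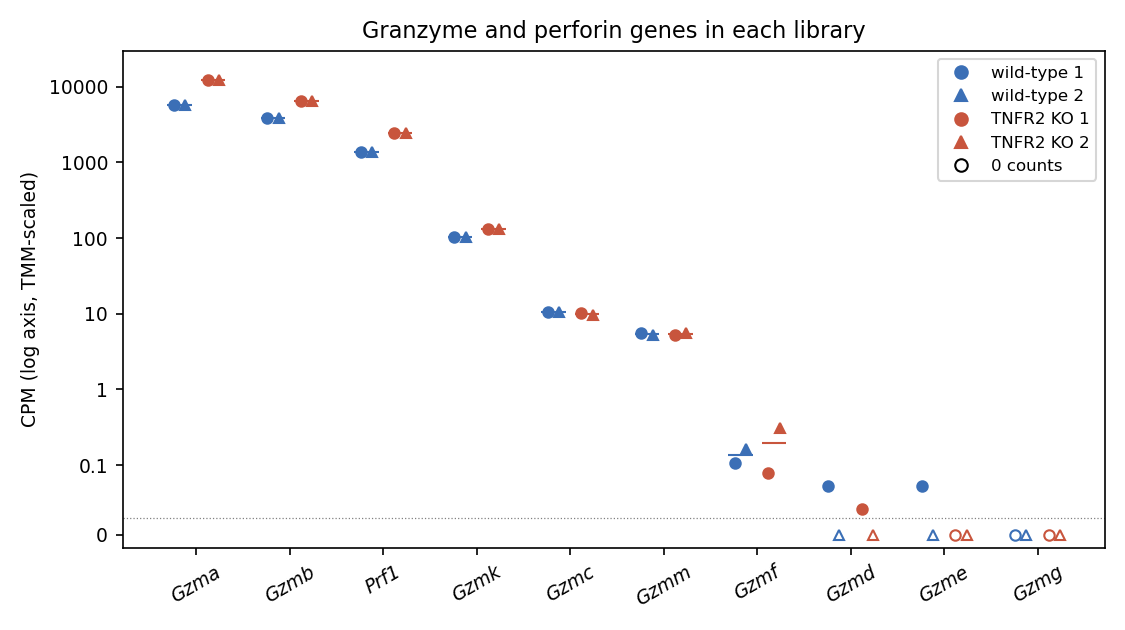
CPM of each gene in each library on a log axis, with wild-type in blue, TNFR2 KO in red, replicate 1 as circles, replicate 2 as triangles, the group mean as a bar and open symbols for 0 counts. Gzma, Gzmb, Prf1 and Gzmk lie higher in both TNFR2 KO libraries on this scaling (not for Prf1, Gzmb and Gzmk when scaled on NK lineage genes), Gzmc and Gzmm lie at 5 to 11 CPM in every library, and the other 4 genes are under 1 CPM.

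Gzma encodes granzyme A, a tryptase. Wild-type replicates 1 and 2 had 5831 and 5779 CPM of Gzma, and their TNFR2 KO counterparts had 12387 and 12140 CPM. Both TNFR2 KO libraries were above both wild-type libraries, and the gap between genotypes was far wider than that within either pair. Expressed as TNFR2 KO relative to wild-type, the log2-fold change was 1.08 (standard error 0.0166), a 2.11-fold higher level, with an adjusted p of 1.08e-13 in edgeR's quasi-likelihood fit. Gzma was the only gene of the 10 past both thresholds of the study, adjusted p under 0.05 together with a log2-fold change beyond 1 in size, which 1.56% of the 13822 tested genes passed in this direction. Scaled on NK lineage genes, its log2-fold change was 0.24 (standard error 0.0172, edgeR adjusted p = 2e-08), still higher but no longer past the fold change threshold.

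Prf1 encodes perforin, the pore-forming protein that lets granzymes reach the cytosol of the target. It was at 1368 and 1386 CPM in wild-type and at 2431 and 2478 CPM in TNFR2 KO. The groups did not overlap. The log2-fold change was 0.83 (standard error 0.0206, 1.78-fold, edgeR adjusted p = 6.17e-12). With scaling on NK lineage genes it was -0.01 (standard error 0.0236, edgeR adjusted p = 0.785), which did not pass the test.

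Gzmb encodes granzyme B, which cleaves caspases and other targets after aspartate. Its level was 3894 and 3859 CPM in wild-type and 6589 and 6491 CPM in TNFR2 KO. Both TNFR2 KO libraries were again higher. On all genes the log2-fold change was 0.75 (standard error 0.0173, 1.69-fold, edgeR adjusted p = 3.07e-12), and on NK lineage genes it turned to -0.09 (standard error 0.0186, edgeR adjusted p = 0.000679).

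Gzmk encodes granzyme K, the other tryptase of the family, and lies beside Gzma. It was far less abundant, at 103 and 102 CPM in wild-type and 133 and 134 CPM in TNFR2 KO. The pairs were tight and did not overlap. Its log2-fold change was 0.38 (standard error 0.0316, 1.3-fold, edgeR adjusted p = 7.62e-07), and -0.46 (standard error 0.0346, edgeR adjusted p = 2.8e-08) with scaling on NK lineage genes. The neighbours Gzma and Gzmk thus differed in the size of their change by 0.70 on the log2 scale, a difference that scaling between libraries leaves as it is.

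Gzmc, next to Gzmb in the cluster, measured 10.7 and 10.7 CPM in wild-type and 10.3 and 9.52 CPM in TNFR2 KO. The TNFR2 KO libraries were slightly lower. The log2-fold change of -0.11 (standard error 0.102) did not pass the test (edgeR adjusted p = 0.417), and its approximate 95% interval from the standard error ran from -0.31 to 0.09. Gzmm, the granzyme M gene, measured 5.54 and 5.24 CPM in wild-type and 5.17 and 5.56 CPM in TNFR2 KO, with overlapping groups, a log2-fold change of -0.008 (standard error 0.140, edgeR adjusted p = 0.969) and an interval from -0.28 to 0.27. These intervals leave out changes as large as those of Gzma, Prf1 and Gzmb on the same scaling. On NK lineage genes, Gzmc and Gzmm were at -0.95 and -0.85 (edgeR adjusted p = 1.25e-06 and 8.55e-05).

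Gzmf, a member of the rodent group, had 4 and 6 counts in wild-type and 3 and 10 counts in TNFR2 KO. Gzmd had 2 and 0 counts in wild-type and 1 and 0 in TNFR2 KO, Gzme had 2 counts in wild-type replicate 1 only, and Gzmg had 0 counts throughout. The limit that a count of 0 allows, 3 counts, corresponds to 0.0776 to 0.0936 CPM in these libraries and covers counting error only. A difference in these 4 genes was not detectable at this depth, and they were removed by the filter on low counts. Summing Gzmc, Gzmd, Gzme, Gzmf and Gzmg into 1 value, so that reads shared among them could not matter, gave a log2-fold change of -0.10 (standard error 0.10, edgeR adjusted p = 0.427).

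Of the 10 genes, 6 could be tested. Of these, 4 were higher and 0 were lower at an adjusted p under 0.05, where 24.2% and 26.2% of all 13822 tested genes were (50.4% in either direction). Without overlap between groups, 4 genes were higher and 1 (Gzmc) was lower, where 36.4% and 37.7% of all genes were (74% in either direction). The median log2-fold change of the 6 was 0.57, against -0.003 for all genes and 0.84 for the 33 NK lineage genes. With libraries scaled on the NK lineage genes, which shifted the median of all genes to -0.84, 1 of the 6 was higher and 4 were lower (edgeR adjusted p under 0.05), where 0.904% of all genes were higher and 88% lower. The standard errors and p-values on that scaling leave out the spread of the list, 0.01 to 1.56 with TMM. How far calls as small as Gzma (0.24) and Gzmb (-0.09) depend on the list chosen was not tested. The p-values compare genotypes over 2 libraries a group, and each pool of hosts gave 1 library of each genotype. By the paper's account all libraries come from 1 experiment. The p-values therefore do not measure variation between experiments or between single mice. With the libraries treated as unpaired, the smallest two-sided p of an exact permutation test on 1 gene is 0.333. Pairing by pool would allow only a larger one.

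**Figure D2:**
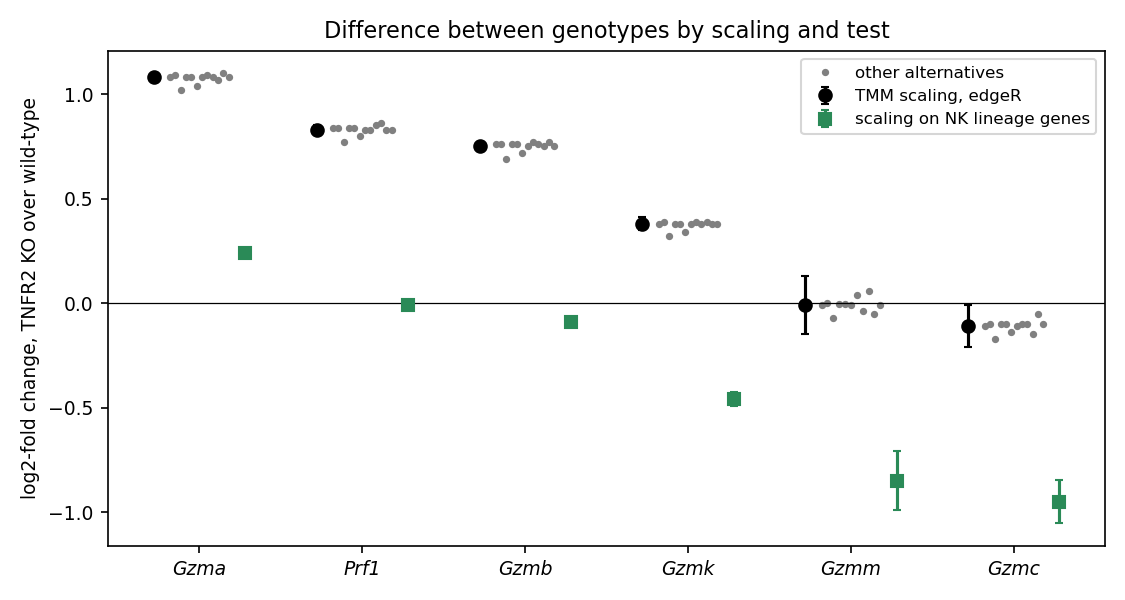
Log2-fold change (TNFR2 KO relative to wild-type) for the 6 tested genes, with TMM scaling in black, scaling on NK lineage genes in green (error bars, standard error) and the other alternatives as grey points. Gzma is above 0 under both scalings, at 1.08 and 0.24, Prf1, Gzmb and Gzmk are above 0 with TMM and at -0.01, -0.09 and -0.46 with NK lineage scaling, and the grey points stay close to the TMM values.

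Levels of different genes were compared per kilobase of the longest coding transcript. On this scale Gzma led in wild-type with 5828 ± 37.2 CPM per kilobase (SD, n = 2), followed by Gzmb with 2699 ± 17.1, Prf1 with 556 ± 5.11, Gzmk with 78.8 ± 0.379, Gzmc with 11.9 ± 0.0277 and Gzmm with 4.19 ± 0.166 CPM per kilobase (SD, n = 2 each). The order was the same in TNFR2 KO, from 12313 ± 175 CPM per kilobase for Gzma and 4554 ± 48.3 for Gzmb through 992 ± 13.3 for Prf1 and 102 ± 0.212 for Gzmk to 11.1 ± 0.588 for Gzmc and 4.17 ± 0.212 CPM per kilobase for Gzmm (SD, n = 2 each). Every step in this order was larger than the spread between replicates. Below Gzmm, the counts of Gzmf, Gzmd, Gzme and Gzmg were too few to place in order.

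Among 12526 tested protein-coding genes with a length, Gzma ranked first per kilobase in all 4 libraries. Gzmb ranked between 7 and 9. Prf1 moved from ranks 105 and 106 in wild-type to rank 53 in both TNFR2 KO libraries, and Gzmk from 893 and 907 to 684 and 672. These ranks compare genes inside a library and need no scaling between libraries, though they move when other genes do.

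The mix of the 10 genes inside each library also needs no scaling. Gzma made up 52.0% and 51.9% of their summed counts in wild-type and 57.5% and 57.1% in TNFR2 KO. The share of Gzmb was 34.7% and 34.6% in wild-type and 30.6% and 30.5% in TNFR2 KO. That of Prf1 was 12.2% and 12.4% in wild-type and 11.3% and 11.7% in TNFR2 KO. There were thus 1.5 Gzma counts for each Gzmb count in both wild-type libraries, and 1.88 and 1.87 in the TNFR2 KO libraries. Prf1 counts per Gzmb count were closer, at 0.351 and 0.359 in wild-type and 0.369 and 0.382 in TNFR2 KO. Gzmk counts came to 1.77% of those of Gzma in both wild-type libraries and to 1.08% and 1.10% in TNFR2 KO, and Gzmc counts to 0.274% and 0.277% of those of Gzmb in wild-type and 0.156% and 0.147% in TNFR2 KO. In each of these 4 ratios the genotypes did not overlap, but neither did they in the levels of 74% of all tested genes. For Prf1 per Gzmb, the gap between genotypes (0.359 to 0.369) was no wider than that between the TNFR2 KO libraries.

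**Figure D3:**
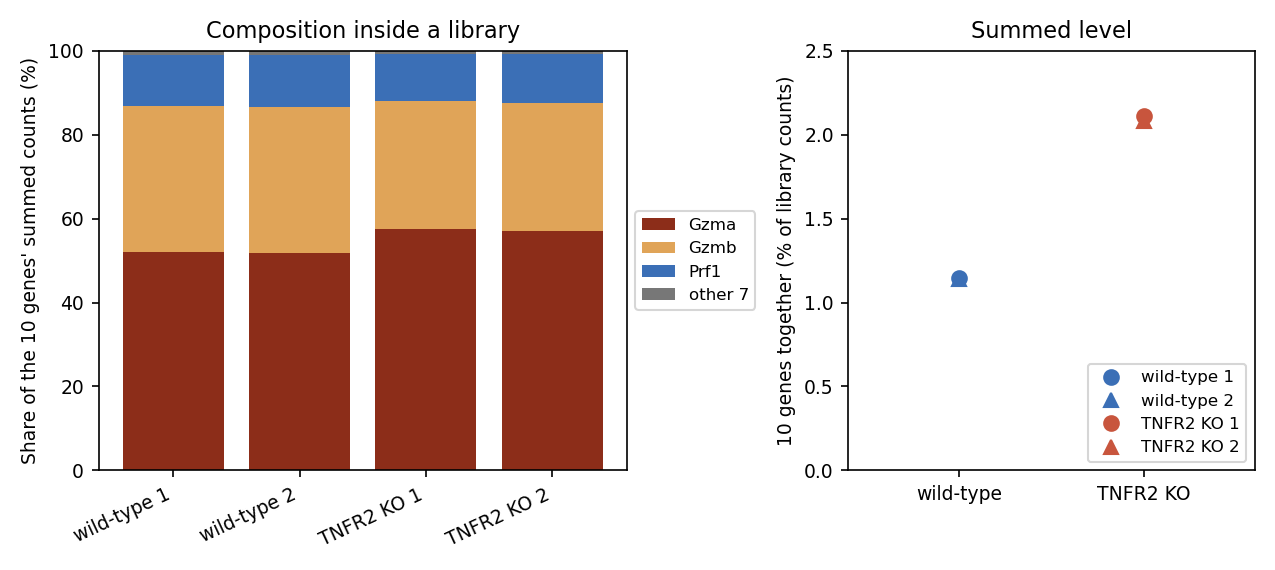
Left, share of each gene in the summed counts of the 10 genes, 1 bar per library. Right, the 10 genes together as a percentage of all counts of the library, 1 point per library. Gzma takes 52.0% and 51.9% in wild-type and 57.5% and 57.1% in TNFR2 KO, and the summed share of the library is 1.14% in both wild-type libraries and 2.11% and 2.08% in TNFR2 KO.

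Among the 2337 other genes that averaged 100 CPM or more, the pattern over the 4 libraries most like that of Gzma belonged to Klrd1 (root mean square distance of centred log2 CPM 0.00611), Klrc2 (0.0288) and S100a6 (0.0309). Klrd1 and Klrc2 encode the CD94 and NKG2C chains of an NK cell receptor and are both on the NK lineage list, and S100a6 encodes a calcium-binding protein. Klrc2 has 21.6% of its stretches shared with other genes, so its counts are less certain. Their levels were 176 and 174, 94.3 and 93.5, and 207 and 203 CPM in wild-type, and 372 and 362, 202 and 188, and 422 and 409 CPM in TNFR2 KO.

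The proteins that process, sort and store granzymes gave a divided picture. Of 12 genes listed for these tasks, 4 were higher and 7 lower (edgeR adjusted p under 0.05, against 24.2% and 26.2% of all genes). The list had a median log2-fold change of -0.22. Ctsc encodes cathepsin C, which removes the propeptide of granzymes, and fell from 530 and 546 CPM to 232 and 226 CPM, a log2-fold change of -1.23. Ctsh, which encodes cathepsin H, a further granzyme convertase, fell from 71.4 and 75.5 CPM to 6.93 and 7.09 CPM (log2-fold change -3.39), and Ctsl, for cathepsin L, from 16.3 and 20.2 CPM to 3.70 and 2.75 CPM (-2.49), with 28.2% of its stretches shared. Lamp1, which encodes the granule membrane protein CD107a, fell from 296 and 285 CPM to 119 and 119 CPM (-1.29). These 4 were the ones past both thresholds, and most of the macrophage, neutrophil and basophil markers given above were lower in the same libraries. The part of those cells in these values was not tested.

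On the higher side stood Cst7, for cystatin F, an inhibitor of cathepsin C, with 119 and 116 CPM in wild-type and 177 and 180.2 CPM in TNFR2 KO (log2-fold change 0.60). Nkg7, for a granule membrane protein of cytotoxic cells, had 787 and 789.9 CPM against 1311 and 1351 CPM (0.76), and Ctsw, for cathepsin W of NK and T cells, had 267 and 273 CPM against 475 and 473 CPM (0.81). Igf2r, for a mannose 6-phosphate receptor that sorts lysosomal proteins, had a log2-fold change of 0.70. M6pr, for the other such receptor, did not pass (-0.04, edgeR adjusted p = 0.19). Srgn, for serglycin, and Calr, for calreticulin, which binds perforin, changed by -0.13 and -0.31. Furin, for a proprotein convertase, changed by -0.62. With scaling on NK lineage genes 0 of the 12 were higher and 11 were lower, against 0.904% and 88% of all genes, and Nkg7 and Ctsw, which are also on the NK lineage list, were at -0.09 and -0.03.

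Serpins of the Serpinb group, which holds the intracellular granzyme inhibitors, and of the separate Serpina3 group showed both directions as well. Of 14 listed, 9 could be tested, and 6 were higher and 3 lower (edgeR adjusted p under 0.05, against 24.2% and 26.2% of all genes). The list had a median log2-fold change of 0.43. Serpinb9, the inhibitor of granzyme B, had 457 and 433 CPM in wild-type and 603 and 592 CPM in TNFR2 KO (log2-fold change 0.43). Its relative Serpinb9b had 76.1 and 75.1 CPM against 239 and 236 CPM (1.65), and Serpinb6b had 315 and 316 CPM against 520 and 509.9 CPM (0.71). Serpina3g, the most abundant of the list in wild-type, fell from 773 and 760.3 CPM to 208 and 209 CPM (-1.88), with Serpina3f (-2.13) and Serpinb1a (-2.41). Serpinb6a and Serpinb1b were at 0.34 and 0.77. Serpinb1c, past both thresholds with 2.02, was under 1 CPM in every library. These genes belong to families with shared sequence, and the shared part was 4.9% for Serpinb9, 11% for Serpinb9b and 28.4% for Serpina3g. With scaling on NK lineage genes, 1 gene of the list, Serpinb9b, was higher and 6 were lower, against 0.904% and 88% of all genes.

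The other death effectors also split. Fasl, for Fas ligand, had 57.7 and 56.1 CPM in wild-type and 103 and 102 CPM in TNFR2 KO. Its log2-fold change was 0.85 and became 0.01 with scaling on NK lineage genes, of which it is one. Tnfsf10, for TRAIL, had 113 CPM in both wild-type libraries and 106 and 107 CPM in TNFR2 KO and did not pass the test (-0.08, edgeR adjusted p = 0.0555). Tnf fell from 18 and 18.7 CPM to 2.71 and 3.56 CPM (-2.56), and Lta, for lymphotoxin alpha, was under 1 CPM in every library (-1.49, edgeR adjusted p = 0.0393, or 0.0618 with the spleen pool as a block). Gzmn, a granzyme gene of the chromosome 14 cluster outside the 10, had 0 counts.

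Of 16 transcription factors tied to granzyme and perforin genes or to NK cell maturation, 8 were higher and 5 lower (edgeR adjusted p under 0.05, against 24.2% and 26.2% of all genes), and 0 passed the fold change threshold. Their median log2-fold change was 0.10, but 0.04 with library size alone and -0.01 among genes averaging 10 CPM or more. Eomes and Tbx21, the T-box factors of NK cells, had log2-fold changes of 0.69 (220 CPM in both wild-type libraries, 356 and 354 CPM in TNFR2 KO) and 0.47 (237 and 235 CPM, 324 and 331 CPM). Id2, required for NK cell development and the most abundant of the list, was at 0.47, and Prdm1, for Blimp-1, at 0.38. Bach2, Stat4 and Nfil3 were at 0.84, 0.51 and 0.50. Runx3, whose family motif is the one found in front of 9 of the 10 genes, changed by 0.17, from 213 and 211 CPM to 238 and 237 CPM, and Runx1 did not pass the test (0.03, edgeR adjusted p = 0.54), nor did Irf4 (0.01) and Batf (-0.12, edgeR adjusted p = 0.0594, or 0.0437 with the spleen pool as a block). The lower genes were Tcf7, for a factor of less mature NK cells (-0.72), Zeb2, a factor of terminal maturation (-0.58), Myb (-0.50), Stat5b (-0.14) and Stat5a (-0.12). Whether these values come from NK cells or from the other cells marked above was not tested. Scaled on NK lineage genes, 0 of the 16 were higher and 15 were lower, Bach2 being the exception at -0.004, against 0.904% and 88% of all genes. Eomes (-0.15) and Tbx21 (-0.37) are themselves on the NK lineage list.

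**Figure D4:**
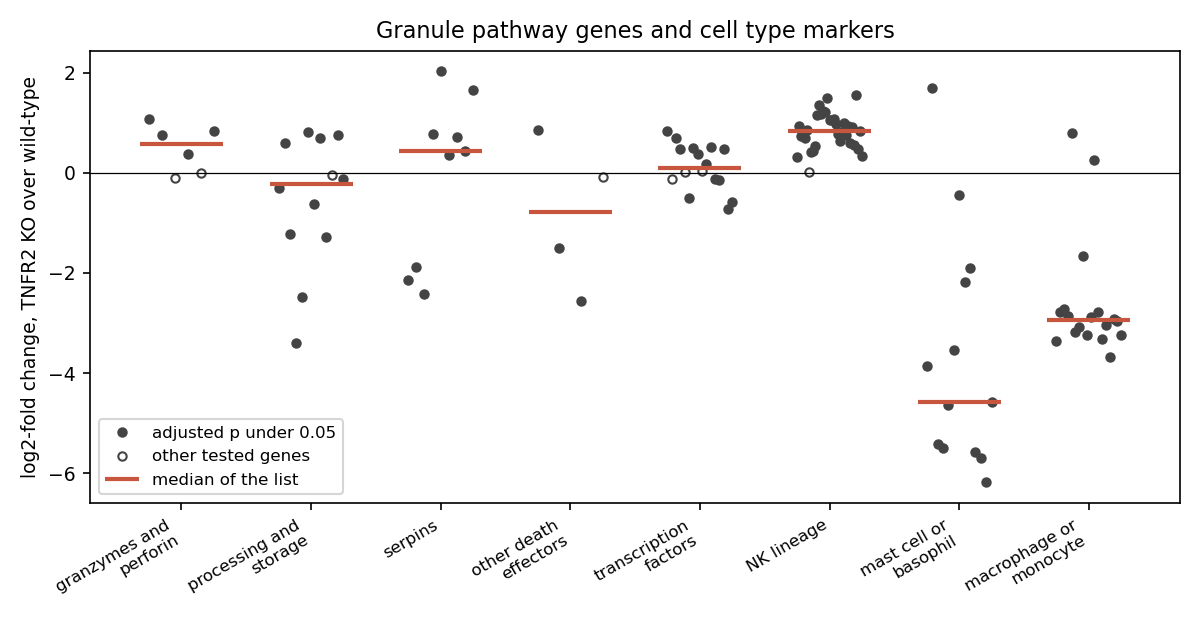
Log2-fold change (TNFR2 KO relative to wild-type, TMM scaling) for each tested gene of 8 lists, with filled points at an adjusted p under 0.05, open points for the other tested genes and a red bar at the median. The median of the 6 granzyme and perforin genes is 0.57 and that of the NK lineage list 0.84, with Gzma (1.08) above and Prf1 (0.83) level with the latter, and the medians of the mast cell or basophil and macrophage or monocyte lists are -4.58 and -2.93.

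The granzyme cluster on chromosome 14 is followed on the same stretch by genes of mast cells, basophils and neutrophils. Ctsg, for cathepsin G of neutrophil precursors, starts 159.7 kb from the start of Gzmb and fell from 86.6 and 91.3 CPM to 1.32 and 1.25 CPM, a log2-fold change of -6.11. Mcpt8, a basophil protease gene 177 kb away, fell from 305 and 301 CPM to 5.97 and 6.87 CPM (-5.57). Mcpt4, Mcpt1 and Mcpt2 had 0.103 to 1.92 CPM and log2-fold changes of -1.90, -2.09 and -1.60. Cma1, for mast cell chymase, lies 318 kb away at the far end and was the single neighbour that rose, from 21.9 and 23.1 CPM to 71.9 and 73.3 CPM (1.69, edgeR adjusted p = 3.61e-11). Of its stretches, 10.6% also occur in other genes, most often in Gm48934. Of the 6 neighbours tested, 5 were lower and 1 higher past both thresholds, against 11.8% and 1.56% of all genes, while Gzmb rose and Gzmc did not pass the test on this scaling, and both were lower (-0.09 and -0.95) on NK lineage genes. Of the 13 tested mast cell or basophil markers, the 12 others than Cma1 had log2-fold changes from -6.18 to -0.44 with TMM scaling.

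**Figure D5:**
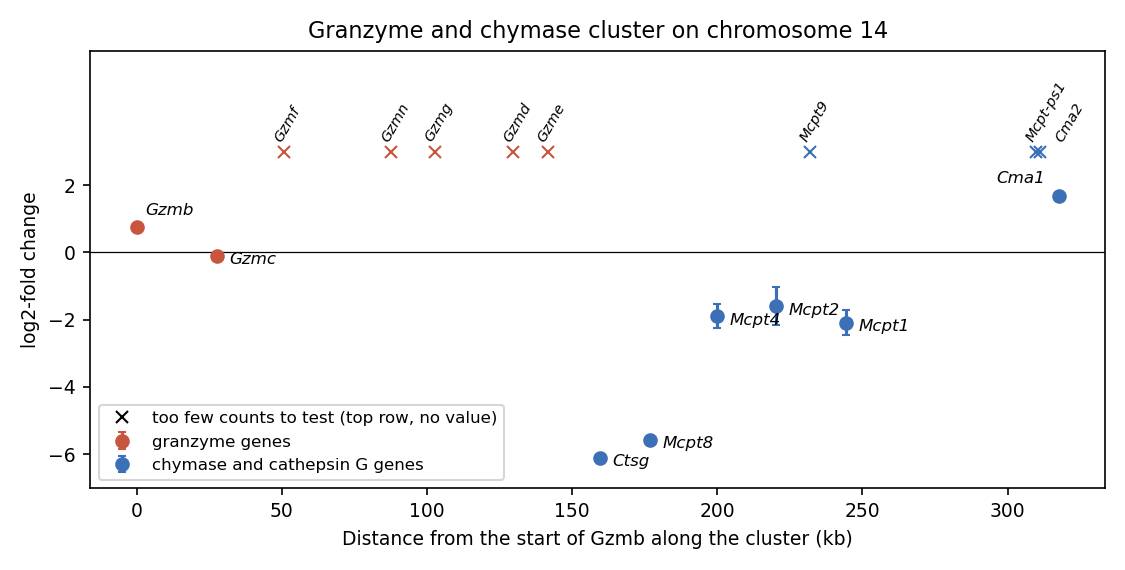
Log2-fold change (TMM scaling) of the tested genes of the chromosome 14 cluster against the distance of their start from that of Gzmb in kb, with standard errors as bars. Crosses in the top row mark genes with too few counts, which have no value. Gzmb (0.75, but -0.09 with scaling on NK lineage genes) and Gzmc (-0.11) lie at one end, Ctsg (-6.11) and Mcpt8 (-5.57) follow the granzyme genes, and Cma1 (1.69) lies at the other end.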

How the data were processed

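RNA from Ly49H+ NK cells of 2 wild-type and 2 TNFR2 KO samples was sequenced from poly-A libraries. The authors trimmed reads (Trimmomatic 1.4 per the labels), quantified them against mm10 with kallisto 0.46.1 and summed transcripts to genes with Tximport, and the deposited values are expected counts, of which 76.3% are whole. They were rounded here. A row with no gene name held 0.056% to 0.073% of counts and was left out.

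The 13822 genes kept by filterByExpr were tested with edgeR 4.0.16 (TMM, quasi-likelihood, genotype as the only term, R 4.3.3), with Benjamini-Hochberg adjustment over all of them. Calls used an adjusted p under 0.05, alone or with an absolute log2-fold change over 1. Log2-fold changes give TNFR2 KO relative to wild-type, and standard errors were derived from the F statistic. The tests were checked on simulated data. The labels state that libraries of the same number share a pool of spleens, so the numbers pair the samples, although the deviations of the pairs correlated at r = 0.049. Duplicates differed by more than counting noise (chi-square per gene 3.27 in wild-type and 3.47 in TNFR2 KO).

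The genes, lists, motifs and tests were chosen with earlier results of these data known. Named were all 10 genes, Tnfrsf1b, genes of the 5 pathway and locus lists (at least the 2 most abundant of each and those past both thresholds), and the 3 genes nearest to Gzma in pattern with a mean of at least 100 CPM. Klra8, Ccr2, Ly6c2, Irf8, Car2, Ighm and Gm48934 were added by name once their values were seen. The alternatives tried were no scaling beyond library size, upper-quartile scaling, DESeq2 1.42.0, its size factors in the edgeR fit, scaling on 33 NK lineage genes (median ratio), no filter, a mean of at least 10 CPM, a spleen pool term, leaving out each library, and summing Gzmc to Gzmg. Positions, lengths (longest protein-coding transcript) and shared 31-base stretches came from GENCODE M21, and promoters from RefSeq GRCm38.p6.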

Additional observations from a re-analysis of the deposited data

How the results depend on the processing

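Under the alternatives other than scaling on NK lineage genes, 80 of 83 values of the 6 tested genes and Tnfrsf1b kept their direction and their side of an adjusted p of 0.05, and the 3 that reversed were all of Gzmm, which is close to 0. Scaling on NK lineage genes lowers every gene by about the same amount. It turned Gzmb to -0.09, Gzmk to -0.46 and Prf1 to -0.01 and took Gzmc (-0.95) and Gzmm (-0.85) past an adjusted p under 0.05. It brought Gzma to 0.24 and so left 0 of the 10 genes past both thresholds, and over all genes it gave 4354 calls past both (27 higher, 4327 lower) against 1842 (215 higher, 1627 lower), and 12293 at an adjusted p under 0.05 (125 higher, 12168 lower) against 6965 (3341 higher, 3624 lower), since it moved the median of all genes to -0.84. Under the other alternatives Gzma ranged from 1.02 to 1.10, Gzmb from 0.69 to 0.77, Prf1 from 0.77 to 0.86 and Gzmk from 0.32 to 0.39. A mean of at least 10 CPM left 478 calls past both thresholds of 8763 genes (58 higher, 420 lower) and 3 genes of the chymase neighbours, fewer genes being tested. Gzmm was at 0.001 with upper-quartile scaling.

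Without each library in turn, Gzma was at 1.07 to 1.10, Gzmb 0.75 to 0.77, Prf1 0.83 to 0.86, Gzmk 0.38 to 0.39, Gzmc -0.15 to -0.05, Gzmm -0.05 to 0.06 and Tnfrsf1b -2.27 to -2.18, with 4 genes at an adjusted p under 0.05 and 1 past both thresholds each time. Where this left 1 library in a group, it was assumed to vary like the other group. With the spleen pool as a replicate block, Gzma was at 1.08, Gzmb at 0.75, Prf1 at 0.83 and Gzmk at 0.38, and 4 genes passed the adjusted p and 1 both thresholds, with 1830.0 calls past both and 7088 at the adjusted p over all genes. The block changed no call of the 10 genes. In the lists it took Batf past the adjusted p (14 transcription factors in place of 13) and ended the call of Lta (2 other death effectors in place of 3). Depth limits Gzmd, Gzme, Gzmf and Gzmg, where a difference could not be tested.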
